A study of Drosophila melanogaster with 12 samples.

Results

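The genes described here encode neuropeptides and the receptors for neuropeptides in the fruit fly Drosophila melanogaster, apart from the peptides of the clock neurons and of the insulin-producing cells. Of 52 listed gene symbols, 51 were in the transcript table and 1 (hug, in that spelling) was not, so that 24 peptide genes and 27 receptor genes remained among the 17816 genes of the table. The rule lists them by symbol and uses no measured value, although the list was drawn up with earlier results of these data known. RNA was sequenced from whole heads, brain included, of 4 groups with 3 libraries each. Control flies were UAS-dicer2/+;tim(UAS)-Gal4/+. Knockdown flies carried UAS-dppil4 RNAi across from UAS-dicer2, together with the same tim(UAS)-Gal4/+. By these labels the driver and the dicer transgene were in both genotypes. The RNAi targets dppil4 (CG5808), which encodes a peptidyl-prolyl isomerase. Collection was on day 4 of a 12 h light and 12 h dark cycle, either at ZT8, in the light phase 8 h after lights on, or at ZT16, in the dark phase. The tim driver is active in clock cells of neurons, glia and eye, and a head also holds many peptide neurons outside its pattern. Sex, age and number of heads per library are not given in the labels. Nothing in the labels says that the libraries of a group came from separate cultures, so the p values measure the spread between these libraries.

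Neuropeptides are cut from larger precursor proteins in the secretory pathway of neurons and endocrine cells, are often amidated at their C-terminus, and are released from dense core vesicles. Nearly all act on G protein-coupled receptors, and in the fly they control feeding, water balance, muscle tone, ecdysis, mating and sleep. Each peptide is typically made by a small number of neurons, while its receptor is spread thinly over many cells, so in a whole head a transcript can change in cells that are few.

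The libraries held 36885481 to 37676778 expected counts at ZT8 and 25844821 to 31848667 at ZT16. The target gene CG5808 was at 4.91, 4.81 and 4.93 counts scaled by library size (CPM) in control heads and 4.34, 2.91 and 4.49 CPM in knockdown heads at ZT8, and at 6.17, 5.86 and 5.16 against 4.46, 4.08 and 3.71 CPM at ZT16, with every knockdown library below every control library of its time. Ribosomal RNA took 5.89%, 2.92% and 3.27% of the counts in control ZT8 libraries 1, 2 and 3 and 5.74%, 7.09% and 2.58% in knockdown ZT8, against 6.40% to 8.05% in the control libraries and 8.94% to 9.73% in the knockdown libraries at ZT16. Control ZT8 library 1 and knockdown ZT8 library 3 thus stood apart from their groups, and several peptide genes did so in the same libraries. Control ZT16 library 1 held 4182 summed TPM of midgut enzyme transcripts and 1271 TPM of ovary and eggshell transcripts, where the other libraries held 73.1 to 253 and 4.12 to 25.7 TPM. All 15 neuron markers and all 15 photoreceptor markers were detected, with summed levels of 2602 to 3587 and 52155 to 81320 TPM, which fits the labelled tissue. In bulk RNA, fewer cells of a type and less RNA per cell cannot be told apart.

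Peptide precursors were far more abundant than receptors. On the TPM scale, the deposited values per transcript length and library size, summed per gene, levels of different genes can be set side by side, and there the median of the mean level over the 12 libraries was 52.6 TPM for the 24 peptide genes and 4.96 TPM for the 27 receptor genes. A mean of at least 10 TPM was reached by 17 peptide genes and 6 receptor genes. Nplp2, a neuropeptide-like precursor, led with a mean level of 16741 TPM (12455 to 19451 over the libraries), followed by Nplp3, another such precursor, at 1588 TPM (849 to 3034), and neither range overlapped that of the next gene in the order. Below them the order was Ms (myosuppressin, which slows muscle contraction) at 333 TPM, Dsk (drosulfakinin, a satiety peptide related to cholecystokinin) at 264 TPM, Orcokinin at 187 TPM, CCHa2 (a nutrient-dependent peptide of gut and fat body) at 120 TPM, Capa (precursor of peptides that act on the renal tubules) at 115.3 TPM and Nplp1 at 98.8 TPM. Each of these overlapped the next gene in its range over libraries. Crz (corazonin), Trissin, Proc (proctolin), Tk (tachykinin), AstA (allatostatin A) and SIFa (SIFamide) had mean levels between 48.1 and 70.9 TPM. Nplp4, FMRFa and Lk (leucokinin) had mean levels of 10.1 to 16.8 TPM, and CNMa, Eh (eclosion hormone) and CCAP (crustacean cardioactive peptide) had mean levels of 1.81 to 8.97 TPM.

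The highest receptor levels were those of SPR (the receptor for the sex peptide and for myoinhibiting peptides) at a mean of 20.7 TPM, Proc-R (proctolin receptor) at 18.8 TPM and Dh44-R2 (receptor for the diuretic hormone Dh44) at 18.5 TPM, and their ranges over the libraries overlapped. Dh31-R, CrzR and sNPF-R followed with means of 12.6 to 15.1 TPM. The lowest receptor was CapaR, at 0.598 TPM (0.33 to 0.88), and every receptor above it overlapped the next gene in the order. RYa, Burs and amn, which encode RYamide, a bursicon subunit and amnesiac, had 0 to 14 reads in every library and were not tested, so that 48 genes, 21 peptide and 27 receptor genes, were carried into the tests. ETH, which encodes the ecdysis triggering hormones, was tested with only 4 to 15 reads per library. Exons of ETH, Lk, SIFa, CCAP, amn, Dh44-R2 and SPR overlap those of a gene on the opposite strand, and as the strand setting of the counting is not given in the sources used here, these 7 genes may hold reads of that neighbour.

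**Figure D1:**
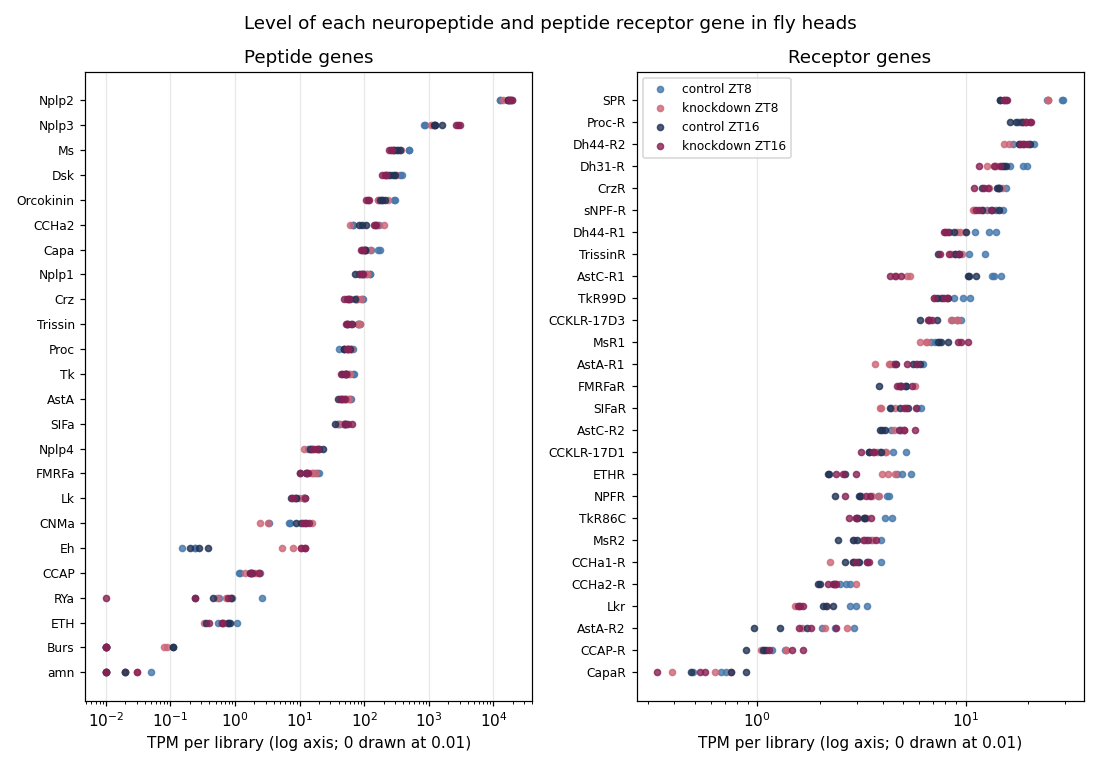
Level of each of the 24 peptide genes (left) and 27 receptor genes (right) in TPM on a log axis, ordered by the mean over 12 libraries, with a point per library coloured by group and values of 0 drawn at 0.01. Nplp2 and Nplp3 lie above all other genes, most receptors lie below 10 TPM, and the points of Eh split into control libraries below 1 TPM and knockdown libraries above 5 TPM.

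Knockdown heads were compared with control heads at each time to see which genes differ between the genotypes. Only knockdown flies carried an RNAi transgene, and no group carried a different one. Lowered dppil4 and other effects of that transgene or its strain background therefore cannot be told apart here. Calls are genes with an adjusted p under 0.05 in the edgeR quasi-likelihood test across 10717 genes, and changes are log2 fold changes ± standard error of CPM with n = 3 libraries per group. At ZT8, 1 of the 48 genes rose (2.08%, where 8.84% of all genes tested rose) and 5 fell (10.4%, where 6.76% of all genes fell). The gene that rose was Eh, and those that fell were Capa, AstC-R1, Dh31-R, Dh44-R1 and Lkr. At ZT16, 6 rose (12.5%, against 11.2% of all genes) and 2 fell (4.17%, against 11.0%). Those that rose were Nplp3, Eh, AstC-R2, MsR1, MsR2 and Proc-R, and those that fell were Orcokinin and AstC-R1. Over both times 6 rose (12.5%, against 14.7%) and 7 fell (14.6%, against 14.1%), and Ms and CCAP-R entered the called genes there. The median log2 change of the 48 genes was -0.027 at ZT8 and 0.073 at ZT16, beside -0.0054 and -0.017 over all genes tested. At ZT8 the receptors had 4 of 27 lower (median -0.079) and the peptide genes 1 of 21 higher and 1 lower (median 0.06). Without control ZT8 library 1 the number called at ZT8 was 14, 4 higher and 10 lower (29.2%), where 25.2% of all genes were called in that fit.

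Eh showed the largest change of the 48 genes in both knockdown comparisons. It encodes eclosion hormone, which is made by brain neurons and drives the behaviour by which an insect leaves its old cuticle. At ZT8 it was at 0.0542, 0.0751 and 0.0751 CPM in control heads (2, 3 and 3 reads) and at 3.78, 1.91 and 2.84 CPM in knockdown heads (141, 69 and 109 reads). At ZT16 the levels were 0.102, 0.0682 and 0.137 CPM in control heads and 3.82, 4.69 and 4.46 CPM in knockdown heads. Every knockdown library thus lay above every control library by more than a factor of 10. Eh passed the read filter only through its knockdown libraries, as control libraries held 2 to 4 reads each. The size of its change thus rests on control levels near the floor, and its rank and adjusted p are no support apart from that filter. The log2 fold change was 5.30 ± 0.34 at ZT8 (edgeR adjusted p = 1.9e-06) and 5.35 ± 0.33 at ZT16 (edgeR adjusted p = 1.49e-06). With reads summed over 3 libraries, 319 in knockdown against 8 in control gave a ratio of 41.6 at ZT8 (exact 95% interval for counting error only, 20.9 to 97.3), and 355 against 9 gave 42.5 at ZT16 (22.1 to 93.7). The call held in every alternative tried, with the log2 change lowest on TPM plus 1, at 2.84 and 3.30.

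Eh lies on chromosome 3R (17446642 to 17448858, dm6) and has 2 transcript variants in the table. Variant A was listed at 0 TPM in all 6 control libraries and at 3.38 to 7.41 TPM in knockdown at ZT8 and 6.24 to 8.94 TPM at ZT16. Variant B was at 0.15 to 0.38 TPM in control and at 1.91 to 4.74 TPM in knockdown. The split between variants is an estimate of the authors' software, but both variants were higher in every knockdown library. The single tested gene within 20 kb, CG14331 at a distance of 5914 bases, had a log2 change of 0.17 at ZT8 (edgeR adjusted p = 0.591) and 0.37 at ZT16 (0.196), and did not pass the test. ETHR and ETH, which act together with eclosion hormone in ecdysis, were not called in either knockdown comparison. The log2 changes at ZT8 and ZT16 were -0.10 and 0.23 for ETHR and -0.37 and -0.17 for ETH.

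Nplp3 rose in knockdown at ZT16. It encodes a neuropeptide-like precursor (chromosome 3L, 16318024 to 16318690). Control libraries at ZT16 held 294.6, 366.8 and 293.3 CPM and knockdown libraries 731, 718.5 and 643 CPM, with no overlap (log2 fold change 1.13 ± 0.18, edgeR adjusted p = 0.00211). At ZT8 the levels were 295.5, 186 and 179 CPM in control against 299, 261 and 268 CPM in knockdown, and control library 1 lay within the knockdown range (0.33 ± 0.18, edgeR adjusted p = 0.244). Without that library the change at ZT8 was 0.60 with an adjusted p of 0.00188, and no other alternative called it. The difference between the effects at ZT16 and ZT8 was 0.80 ± 0.25 and did not pass the test (edgeR adjusted p = 0.0989). Over 20 alternatives the adjusted p ran from 0.00961, with DESeq2, to 0.222. It passed in 2 of them, the other being the fit without control ZT8 library 1 (0.0312). Where 11.2% of all genes rose at ZT16, 2 of 4 tested genes within 20 kb also rose. They were retinin, which encodes a protein of the corneal lens and lies 13243 bases away (0.755 ± 0.090, edgeR adjusted p = 0.000264), and CG13062 at 2875 bases, with 2, 11 and 3 reads in control and 26, 23 and 12 reads in knockdown (edgeR adjusted p = 0.036).

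Orcokinin fell in knockdown at ZT16. Its peptides are conserved among arthropods (the gene lies on chromosome 2R, 23946959 to 23949076). Levels were 52.4, 57.4 and 53.0 CPM in control heads and 32.7, 32.2 and 34.0 CPM in knockdown heads, with no overlap (-0.72 ± 0.14, edgeR adjusted p = 0.00682). At ZT8 the control libraries held 53.1, 74.4 and 71.6 CPM and the knockdown libraries 45.7, 47.4 and 64.4 CPM, and the groups overlapped through control library 1 and knockdown library 3 (-0.34 ± 0.14, edgeR adjusted p = 0.138). Leaving out either of these libraries gave a call at ZT8, with an adjusted p of 0.0169 without control ZT8 library 1 and 0.0178 without knockdown ZT8 library 3. Of 16 tested genes within 20 kb, 4 rose and 1 fell at ZT16 (against 11.2% and 11.0% of all genes). At ZT8, 3 rose and 0 fell (against 8.84% and 6.76%).

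Capa fell at ZT8, from 45.0, 55.4 and 51.6 CPM in control to 38.2, 37.9 and 42.8 CPM in knockdown (-0.35 ± 0.072, edgeR adjusted p = 0.00761). The groups did not overlap, and in a fit of the 6 ZT8 libraries alone the adjusted p was 0.0538. At ZT16 control held 35.5, 35.7 and 36.3 CPM and knockdown 32.8, 33.5 and 34.3 CPM, a difference that did not pass the test (-0.094 ± 0.074, edgeR adjusted p = 0.384). Of 10 tested genes within 20 kb, 0 rose and 2 fell at ZT8 (against 8.84% and 6.76% of all genes). At ZT16, 2 rose and 2 fell (against 11.2% and 11.0%). The 2 that fell at ZT8 lie next to Capa. They were CG31036 at 99 bases (-0.405 ± 0.077, edgeR adjusted p = 0.0056) and trp, a channel gene of phototransduction, at 175 bases (-0.209 ± 0.065, edgeR adjusted p = 0.0481), and their part in the count of Capa was not tested. Ms was called over both times only, at -0.31 ± 0.084 (edgeR adjusted p = 0.0197). Its levels were 174, 225 and 227 CPM in control heads and 151, 152 and 194 CPM in knockdown heads at ZT8, and 156, 185 and 171 CPM in control heads and 140.1, 136 and 145 CPM in knockdown heads at ZT16. This call ended without control ZT8 library 2 (0.0559) or 3 (0.0544), knockdown ZT8 library 1 (0.0522) or 2 (0.0548), or knockdown ZT16 library 1 (0.0524) or 2 (0.0535). Dsk had the same log2 change over both times, -0.31, with an edgeR adjusted p of 0.0508, and was called in 7 of 20 alternatives.

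Among the receptors, AstC-R1 showed the largest fall at each time. It is a receptor for allatostatin C, an inhibitory peptide related to somatostatin (chromosome 3L, 18560258 to 18576326). At ZT8 control libraries held 26.3, 24.0 and 26.1 CPM and knockdown libraries 10.8, 10.6 and 9.18 CPM. At ZT16 the values were 21.0, 21.9 and 21.1 CPM in control heads and 9.45, 9.33 and 10.2 CPM in knockdown heads. The knockdown libraries of both times lay within 9.18 to 10.8 CPM, below every control library, and the log2 change was -1.32 ± 0.07 at ZT8 (edgeR adjusted p = 5.19e-07) and -1.14 ± 0.072 at ZT16 (edgeR adjusted p = 1.65e-06). Both calls held in every alternative. The single tested gene within 20 kb of it, lncRNA:CR45435 at 7111 bases, also fell at each time (edgeR adjusted p = 0.000754 at ZT8 and 0.00259 at ZT16), with 29, 31 and 26 reads in control against 1, 2 and 3 reads in knockdown at ZT8, and 12, 10 and 5 reads against 0, 0 and 1 read at ZT16.

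The other allatostatin C receptor, AstC-R2, moved the opposite way at ZT16. Its levels were 9.76, 10.4 and 10.1 CPM in control heads and 15.4, 12.2 and 13.6 CPM in knockdown heads (0.45 ± 0.096, edgeR adjusted p = 0.00778), with no overlap. At ZT8 the groups overlapped, at 11.1, 10.3 and 8.87 CPM against 10.7, 11.0 and 10.5 CPM. Allatostatin C itself (AstC) was not called in either knockdown comparison.

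Lkr, the receptor for leucokinin, which acts on fluid secretion and on feeding and sleep circuits, fell at ZT8. Control libraries held 5.53, 5.89 and 5.26 CPM and knockdown libraries 3.19, 3.07 and 4.31 CPM, with no overlap (-0.66 ± 0.13, edgeR adjusted p = 0.00745). At ZT16 the groups again did not overlap, at 4.41, 4.09 and 4.75 CPM against 3.34, 3.36 and 3.48 CPM, but the change missed the threshold (-0.38 ± 0.14, edgeR adjusted p = 0.067). It passed in 1 of 21 alternatives, without knockdown ZT8 library 3 (0.0282), and the highest adjusted p was 0.174. Over both times Lkr fell by 0.52 on the log2 scale (edgeR adjusted p = 0.00231). The 3 tested genes within 20 kb of Lkr, which are CG34342, CG13285 and frm, had edgeR adjusted p from 0.235 to 0.499 at ZT8 and from 0.276 to 0.76 at ZT16. Its ligand Lk was not called, with log2 changes of 0.060 and 0.23.

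Receptors for both fly diuretic hormones fell slightly at ZT8. Dh31-R, for the calcitonin-like hormone, went from 36.4, 39.1 and 37.7 CPM to 31.9, 31.9 and 28.5 CPM (-0.30 ± 0.072, edgeR adjusted p = 0.0173). Dh44-R1, for the hormone related to corticotropin-releasing factor, went from 18.3, 20.5 and 19.1 CPM to 15.8, 15.5 and 16.6 CPM (-0.28 ± 0.066, edgeR adjusted p = 0.0158). Neither pair of groups overlapped, yet both calls depended on single libraries. The call of Dh31-R ended without control ZT8 library 2 (0.0936) or 3 (0.0699) or knockdown ZT8 library 3 (0.0585), and that of Dh44-R1 ended without control ZT8 library 2 (0.106) or 3 (0.0655) or knockdown ZT8 library 1 (0.0653) or 2 (0.062). Over both times they fell by 0.22 and 0.20 on the log2 scale (edgeR adjusted p = 0.0072 and 0.00873), and those calls held in every alternative. Dh44, the ligand of Dh44-R1, also fell at ZT8 (-0.26 ± 0.059, edgeR adjusted p = 0.0119), while the second receptor of that ligand, Dh44-R2, was at -0.083 and not called.

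Receptors for myosuppressin and proctolin were higher at ZT16. MsR1, a myosuppressin receptor, was at 19.3, 19.8 and 18.7 CPM in control heads and 26.0, 25.2 and 23.6 CPM in knockdown heads (0.37 ± 0.060, edgeR adjusted p = 0.00162). Proc-R was at 32.3, 35.6 and 35.2 CPM in control heads and 41.3, 40.9 and 41.5 CPM in knockdown heads (0.26 ± 0.057, edgeR adjusted p = 0.00782), and on TPM the call ended (0.0556). Over both times MsR1 rose by 0.17 and Proc-R by 0.21 (edgeR adjusted p = 0.0106 and 0.00253), and on TPM these calls ended too (0.343 and 0.0662). At ZT16 the groups of both genes did not overlap. MsR2, the other myosuppressin receptor, went from 4.51, 4.94 and 5.77 CPM to 7.0, 6.46 and 6.43 CPM (0.38 ± 0.11, edgeR adjusted p = 0.0324). This call ended without control ZT16 library 1 (0.106) or 2 (0.0743), without any of the 3 knockdown ZT16 libraries (0.0609 to 0.102), on TPM (0.137), with the replicate block (0.0573) and with the rRNA share as a covariate (0.0593). CCAP-R, called over both times at 0.37 ± 0.13 (edgeR adjusted p = 0.0496), lost its call when any 1 library other than knockdown ZT8 library 3 or knockdown ZT16 library 2 was left out (0.0525 to 0.127) and in 7 other settings (0.0509 to 0.189). Its levels were 2.17, 2.10 and 2.45 CPM in control against 2.84, 2.88 and 2.14 CPM in knockdown at ZT8, and 2.24, 1.77 and 2.32 CPM against 3.06, 2.49 and 3.54 CPM at ZT16.

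General neuron markers moved with the groups as well. At ZT16, 10 of 15 neuron markers rose in knockdown (66.7%, against 11.2% of all genes), with a median log2 change of 0.27. Their summed level was 2602 to 3016 TPM in control and 2986 to 3460 TPM in knockdown. At ZT8, 4 of the 15 fell (26.7%, against 6.76%, median -0.11), with 3093 to 3587 TPM in control and 2682 to 2907 TPM in knockdown. Of 13 muscle markers tested, 8 rose (61.5%, against 8.84%) and 1 fell (7.69%, against 6.76%) at ZT8, with a median of 0.54. Their summed level at ZT8 was 2174 to 2656 TPM in control and 2541 to 3106 TPM in knockdown. At ZT16, 7 of them rose (53.8%, against 11.2%, median 0.34), with 2634 to 2992 TPM in control and 3390 to 3706 TPM in knockdown. Of 15 photoreceptor markers, 7 fell at ZT8 (46.7%, against 6.76%, range -0.67 to -0.04) and 6 at ZT16 (40%, against 11.0%, range -0.64 to 0.16). Of 14 fat body markers, 6 rose at ZT8 (42.9%, against 8.84%) and 2 at ZT16 (14.3%, against 11.2%). Of 10 glia markers, 0 were called at ZT8 and 3 rose at ZT16 (30%, against 11.2%). Of 8 antenna markers tested, 3 rose at ZT8 (37.5%, against 8.84%) and 0 were called at ZT16. At ZT16, 1 of 6 hemocyte markers (16.7%) and 2 of 7 midgut enzyme genes (28.6%) fell, against 11.0%. The summed midgut enzyme level was high in control ZT16 library 1 alone, at 4182 TPM. It was 167 and 107 TPM in the other control libraries and 83.7 to 103 TPM in knockdown. The rises of MsR1, MsR2, Proc-R and AstC-R2 at ZT16 lay within the range of the neuron markers (-0.03 to 0.46), as the falls of Dh31-R and Dh44-R1 at ZT8 lay within theirs (-0.31 to 0.03), and the part of the marker changes in them was not tested. Eh, AstC-R1, Nplp3 and Orcokinin lay outside the neuron range at ZT16.

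**Figure D2:**
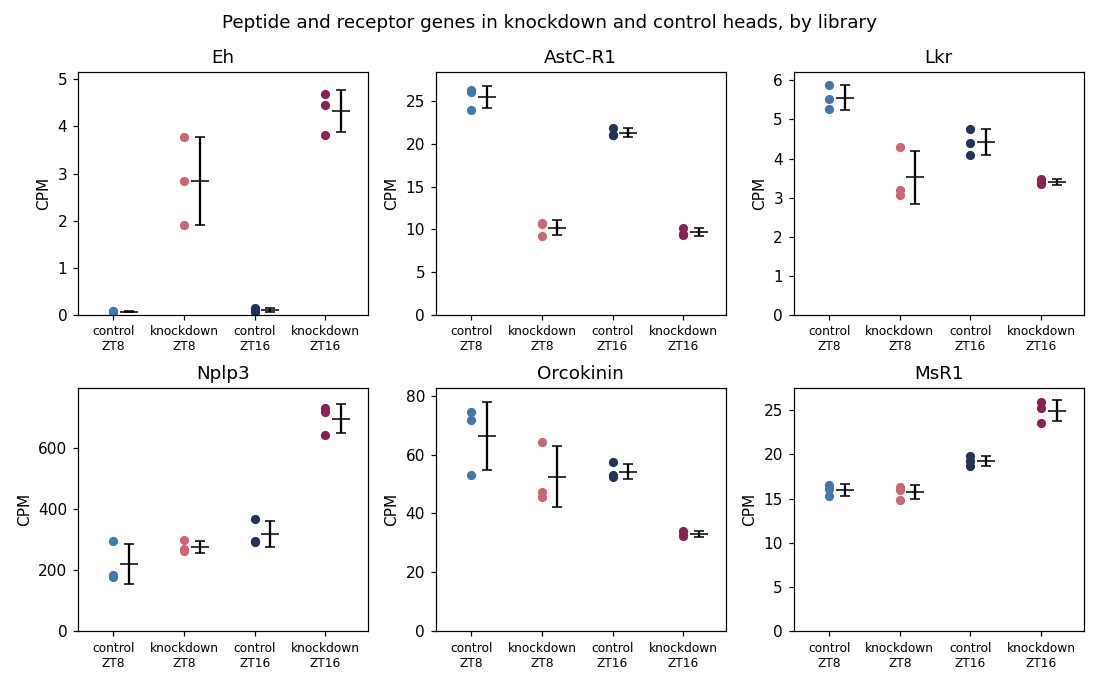
CPM of 6 genes by group, with a point per library and the mean ± SD of 3 libraries as a bar. Eh is near 0 in all control libraries and between 1.91 and 4.69 CPM in knockdown, AstC-R1 is lower in every knockdown library, and Nplp3, Orcokinin and MsR1 separate at ZT16.

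**Figure D3:**
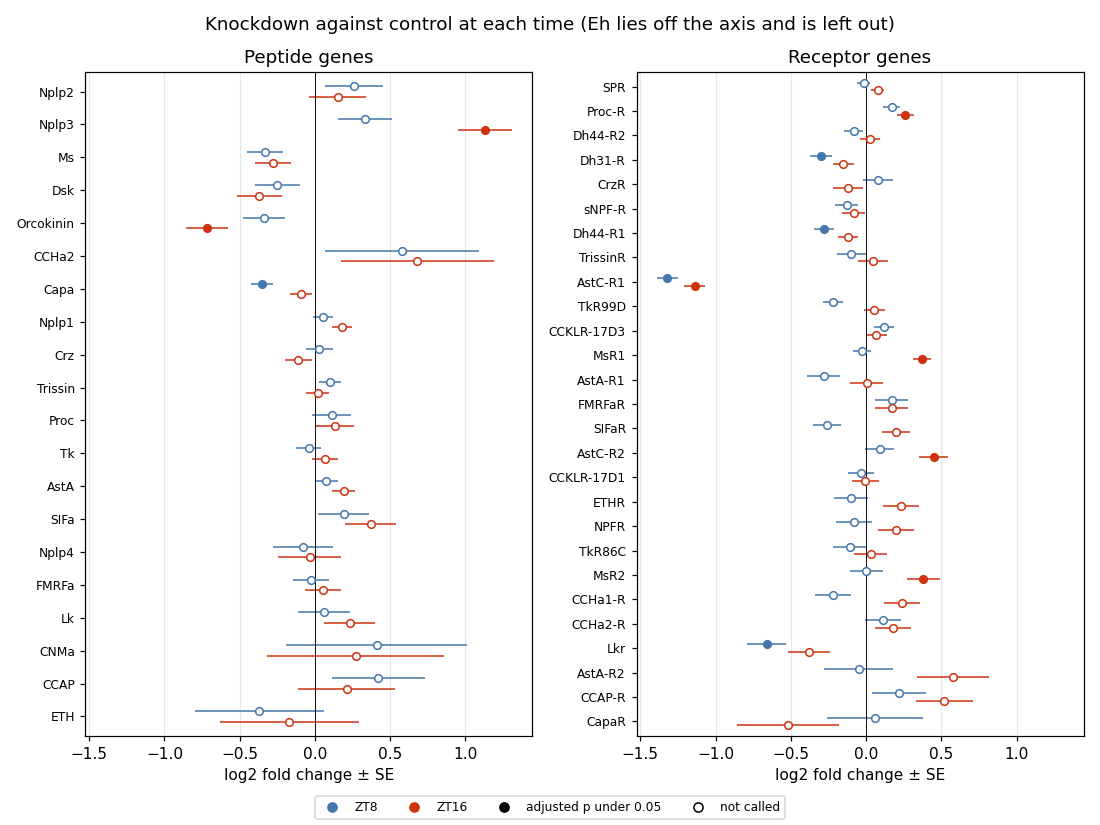
Log2 fold change of knockdown against control ± standard error at ZT8 (blue) and ZT16 (red) for 20 peptide genes (left) and 27 receptor genes (right), ordered by level, with filled points for adjusted p under 0.05. Eh, at 5.30 and 5.35, is left out because it lies off the axis, and most open points lie within 0.5 of 0 on either side.

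Several peptide genes differed widely among the libraries of 1 group at ZT8. CCHa2 was at 130, 45.1 and 45.9 CPM in control heads and 158, 125 and 46.1 CPM in knockdown heads at ZT8, so that control library 1 resembled knockdown libraries 1 and 2 and knockdown library 3 resembled control libraries 2 and 3. At ZT16 it was at 75.1, 63.9 and 85.5 CPM in control heads and 124, 122 and 114 CPM in knockdown heads, with no overlap. The log2 change at ZT16, 0.68 ± 0.51, did not pass the test in the fit that shares its spread over all 12 libraries (edgeR adjusted p = 0.374), and passed it in the 6 ZT16 libraries alone (0.00406). CNMa, which encodes the peptide CNMamide, went the other way within ZT8, at 3.31, 6.41 and 5.96 CPM in control heads and 3.19, 2.49 and 15.1 CPM in knockdown heads.

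Both libraries also lay apart for Ms and Dsk, and control ZT8 library 1 for Nplp2. Nplp2 was at 3344, 1951 and 1932 CPM in control ZT8 libraries 1, 2 and 3, against 2540 to 3244 CPM in knockdown ZT8. Without control ZT8 library 1 its log2 change at ZT8 was 0.57 (edgeR adjusted p = 0.00233), against 0.26 (0.392) with it. Dsk was at 60.5, 82.0 and 88.8 CPM in control heads and 58.9, 56.3 and 78.7 CPM in knockdown heads at ZT8, and at 67.4, 74.9 and 72.2 CPM against 55.1, 52.2 and 58.6 CPM at ZT16. In these 2 libraries the rRNA share also differed from the rest of the group, being high in control library 1 and low in knockdown library 3, and its part in these levels was tested only by a fit with the rRNA share as a covariate, which was chosen after the data were seen. In that fit 8 members were called at ZT8 (16.7%, against 15.2% of all genes), 7 of them lower, with Ms (-0.24, adjusted p = 0.018) and Orcokinin (-0.23, adjusted p = 0.0326) added.

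**Figure D4:**
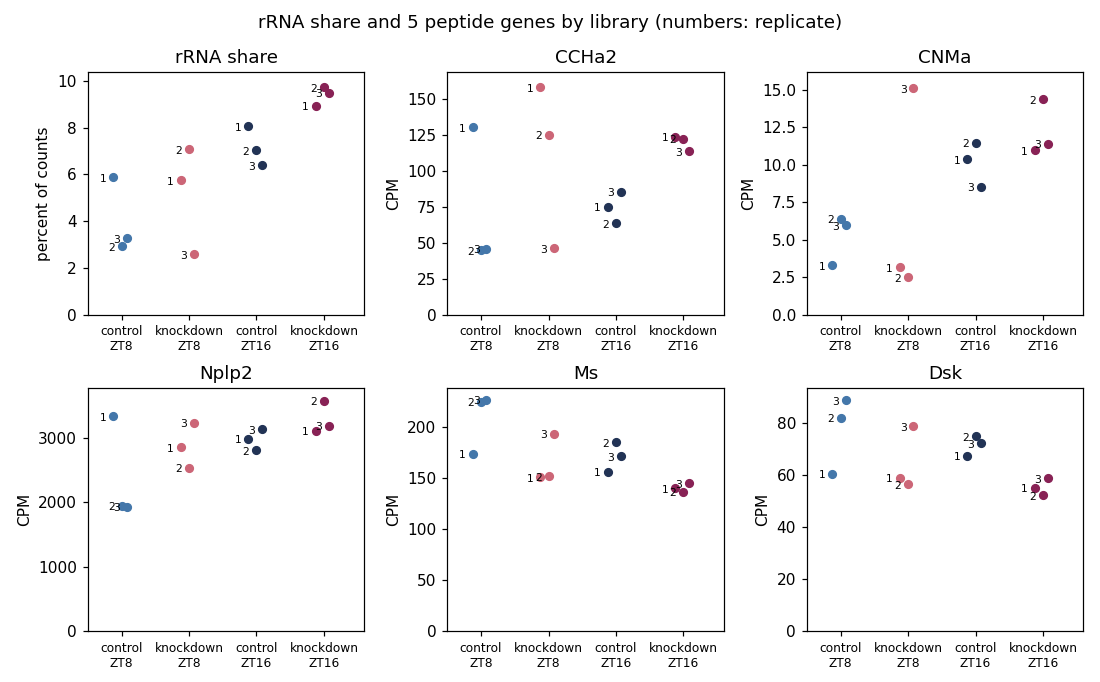
Share of counts on rRNA genes (percent) and CPM of CCHa2, CNMa, Nplp2, Ms and Dsk by group, with a point per library numbered by replicate. Control ZT8 library 1 and knockdown ZT8 library 3 lie away from the other libraries of their groups in most panels, while the ZT16 groups are tight.

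ZT16 was compared with ZT8 within each genotype to see which genes differ between light and dark phase. In control heads 1 of 48 genes rose (2.08%, against 12.0% of all genes tested) and 12 fell (25%, against 11.8%). The median log2 change was -0.13, beside 0.023 over all genes. In knockdown heads 7 rose (14.6%, against 11.8%) and 8 fell (16.7%, against 11.4%), with a median of -5.7e-05 beside -0.013. Neuron markers fell with time in control, 9 of 15 (60%, against 11.8%) with a median of -0.21. In knockdown 4 of 15 rose (26.7%, against 11.8%) and 1 fell (6.67%, against 11.4%). Of 13 muscle markers tested, 9 rose in control (69.2%, against 12.0%) and 1 fell (7.69%, against 11.8%). Of those 13, 7 rose in knockdown (53.8%, against 11.8%). Of 10 glia markers, 4 rose in control (40%) and 5 in knockdown (50%). Photoreceptor markers fell in 3 of 15 in control (20%) and 4 in knockdown (26.7%), and 1 rose in each (6.67%). Of 8 antenna markers tested, 3 rose in control (37.5%) and 0 were called in knockdown. The part of these markers in the falls of peptide and receptor genes in control was not tested. Collection time also went with the depth and the rRNA share of the libraries. With the rRNA share as a covariate 10 members were called in control, 2 higher and 8 lower (20.8%, against 17.1% of all genes), and 12 in knockdown, 6 higher and 6 lower (25%, against 17.2%).

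SPR and ETHR had the lowest adjusted p of the 48 genes with time in control, and both also fell in knockdown. SPR fell from 55.0, 57.8 and 57.6 CPM at ZT8 to 32.8, 34.4 and 33.5 CPM at ZT16 in control (-0.76 ± 0.044, edgeR adjusted p = 8.47e-07), and from 55.3, 57.2 and 56.3 CPM to 35.1, 36.7 and 34.4 CPM in knockdown (-0.67 ± 0.044, edgeR adjusted p = 2.39e-06). The 6 libraries of a time lay close together whatever their genotype. ETHR, the receptor for the ecdysis triggering hormones, fell from 10.6, 8.87 and 10.4 CPM to 5.70, 4.53 and 4.85 CPM in control (-0.98 ± 0.11, edgeR adjusted p = 0.000146) and from 9.96, 9.39 and 8.43 CPM to 5.63, 5.52 and 6.46 CPM in knockdown (-0.66 ± 0.11, edgeR adjusted p = 0.00178). All 4 calls held in every alternative. SPR overlaps frma on the opposite strand, so part of its count may belong to that gene.

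Peptide genes that fell with time in both genotypes were Trissin, Crz, FMRFa and Capa. Trissin went from 19.9, 18.7 and 18.5 CPM to 13.8, 13.0 and 15.7 CPM in control (-0.43 ± 0.077, edgeR adjusted p = 0.00246) and from 19.8, 20.2 and 21.2 CPM to 15.5, 13.5 and 13.9 CPM in knockdown (-0.51 ± 0.078, edgeR adjusted p = 0.00076). Crz, which encodes corazonin, a stress peptide related to gonadotropin-releasing hormone, went from 23.6, 27.1 and 26.5 CPM to 17.7, 22.2 and 19.3 CPM in control (-0.38 ± 0.090, edgeR adjusted p = 0.0103) and from 25.4, 25.1 and 28.3 CPM to 19.1, 16.8 and 18.8 CPM in knockdown (-0.52 ± 0.091, edgeR adjusted p = 0.0018). In each case the groups did not overlap, although with the rRNA share as a covariate the call of Crz in control ended (0.114). FMRFa went from 17.4, 14.5 and 13.4 CPM to 9.36, 11.2 and 11.5 CPM in control (-0.49 ± 0.12, edgeR adjusted p = 0.0127, 0.0532 with that covariate). Capa fell from the ZT8 levels given above to 35.5, 35.7 and 36.3 CPM in control (-0.50 ± 0.073, edgeR adjusted p = 0.000683). In knockdown FMRFa went from 13.9, 14.3 and 16.1 CPM to 12.2, 9.67 and 11.5 CPM (-0.41, adjusted p = 0.0308), and Capa fell by 0.24 (edgeR adjusted p = 0.0352).

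Those 2 calls in knockdown rested on single libraries. FMRFa in knockdown lost its call without knockdown ZT8 library 2 (0.0547) or 3 (0.0941) or knockdown ZT16 library 2 (0.112) or 3 (0.0695), and with the rRNA share as a covariate (0.128). Capa in knockdown lost it without any 1 of the 6 knockdown libraries (0.05 to 0.116), on TPM (0.0763) and with the rRNA share as a covariate (0.541).

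Nplp1, AstA, Dh44-R1, AstC-R1 and AstA-R2 fell with time by the test in control and were not called in knockdown, which does not show that the genotypes differ. The difference was not called for any of them. Nplp1, a precursor of several peptides, went from 143, 154 and 159 CPM to 109.7, 132 and 127 CPM (-0.31 ± 0.068, edgeR adjusted p = 0.00725). AstA, whose peptides restrain feeding, went from 39.7, 44.3 and 44.7 CPM to 32.6, 34.7 and 37.7 CPM (-0.29 ± 0.076, edgeR adjusted p = 0.0164), and its call ended without control ZT8 library 2 (0.0618) or 3 (0.0624) or control ZT16 library 1 (0.0579), and with the rRNA share as a covariate (0.183). Dh44-R1 went from 18.3, 20.5 and 19.1 CPM to 14.3, 16.5 and 15.0 CPM (-0.34 ± 0.066, edgeR adjusted p = 0.00381). AstC-R1 fell by 0.26 on the log2 scale (edgeR adjusted p = 0.0193), and this call ended without control ZT8 library 1 (0.0525) or 3 (0.0825) or control ZT16 library 1 (0.0518) or 3 (0.0602). AstA-R2, an allatostatin A receptor, went from 2.90, 3.63 and 3.01 CPM to 2.54, 1.74 and 1.43 CPM (-0.74, edgeR adjusted p = 0.0413). It lost the call without control ZT8 library 2 (0.135) or 3 (0.0775), knockdown ZT8 library 1 (0.0582), control ZT16 library 2 (0.0993) or 3 (0.128), or knockdown ZT16 library 2 (0.0544), in the 6 control libraries alone (0.0733) and with the rRNA share as a covariate (0.269). CCKLR-17D3, a drosulfakinin receptor, fell in both genotypes, by 0.29 in control (12.6, 12.3 and 11.9 CPM to 9.26, 10.7 and 10.1 CPM, edgeR adjusted p = 0.0103) and by 0.35 in knockdown (13.8, 12.9 and 13.4 CPM to 10.2, 11.1 and 10.3 CPM, edgeR adjusted p = 0.00404).

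MsR1 was the 1 gene that rose with time in control, from 16.6, 15.3 and 16.1 CPM to 19.3, 19.8 and 18.7 CPM (0.27 ± 0.060, edgeR adjusted p = 0.00834), a call that ended on TPM (0.332) and with the rRNA share as a covariate (0.0928). In knockdown it rose further, from 15.97, 16.3 and 14.8 CPM to 26.0, 25.2 and 23.6 CPM (0.67 ± 0.060, edgeR adjusted p = 1.83e-05). Nplp3 had the largest rise in knockdown, from 299, 261 and 268 CPM to 731, 718.5 and 643 CPM (1.34 ± 0.18, edgeR adjusted p = 0.000616), and in control its change of 0.53 ± 0.18 missed the threshold (edgeR adjusted p = 0.053). Over 21 alternatives the adjusted p of Nplp3 in control ran from 0.000352, without control ZT8 library 1, to 0.294, and 6 of them called it. Orcokinin fell in knockdown from 45.7, 47.4 and 64.4 CPM to 32.7, 32.2 and 34.0 CPM (-0.67 ± 0.14, edgeR adjusted p = 0.0077). None of these pairs of groups overlapped in knockdown.

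Receptors that rose with time in knockdown also included SIFaR, Dh44-R2, AstC-R2, AstA-R1 and Proc-R. SIFaR, the receptor for SIFamide, which acts on feeding, courtship and sleep, went from 14.1, 14.0 and 16.2 CPM to 21.1, 19.4 and 19.3 CPM (0.43 ± 0.094, edgeR adjusted p = 0.00647). Dh44-R2 went from 26.2, 28.5 and 30.8 CPM to 33.5, 34.7 and 35.5 CPM (0.28 ± 0.066, edgeR adjusted p = 0.011). Neither call depended on a single library, but both ended on TPM (0.0871 and 0.133). AstC-R2 rose by 0.36 (edgeR adjusted p = 0.0195). AstA-R1, an allatostatin A receptor, went from 11.04, 9.61 and 11.1 CPM to 15.5, 12.7 and 14.1 CPM (0.41, edgeR adjusted p = 0.0197). The first call ended without knockdown ZT8 library 1 (0.0565) or 3 (0.0629) or knockdown ZT16 library 1 (0.0912) or 3 (0.0547), and the second without knockdown ZT8 library 2 (0.0847) or knockdown ZT16 library 1 (0.0874) or 3 (0.0581). On TPM both ended too (0.63 and 0.139), and that of AstC-R2 ended with the rRNA share as a covariate (0.156). Proc-R, at 0.18 (edgeR adjusted p = 0.0417), lost its call without any 1 library other than control ZT8 libraries 1 and 3 and control ZT16 library 1 (0.0587 to 0.104), and in 6 other settings (0.0508 to 0.381). With replicate number as a block in the 6 knockdown libraries alone, the edgeR adjusted p of Proc-R was 0.0508, and SIFa was called in addition (0.35, adjusted p = 0.0449). No label states that these numbers pair the libraries, and that fit was chosen after the data were seen.

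**Figure D5:**
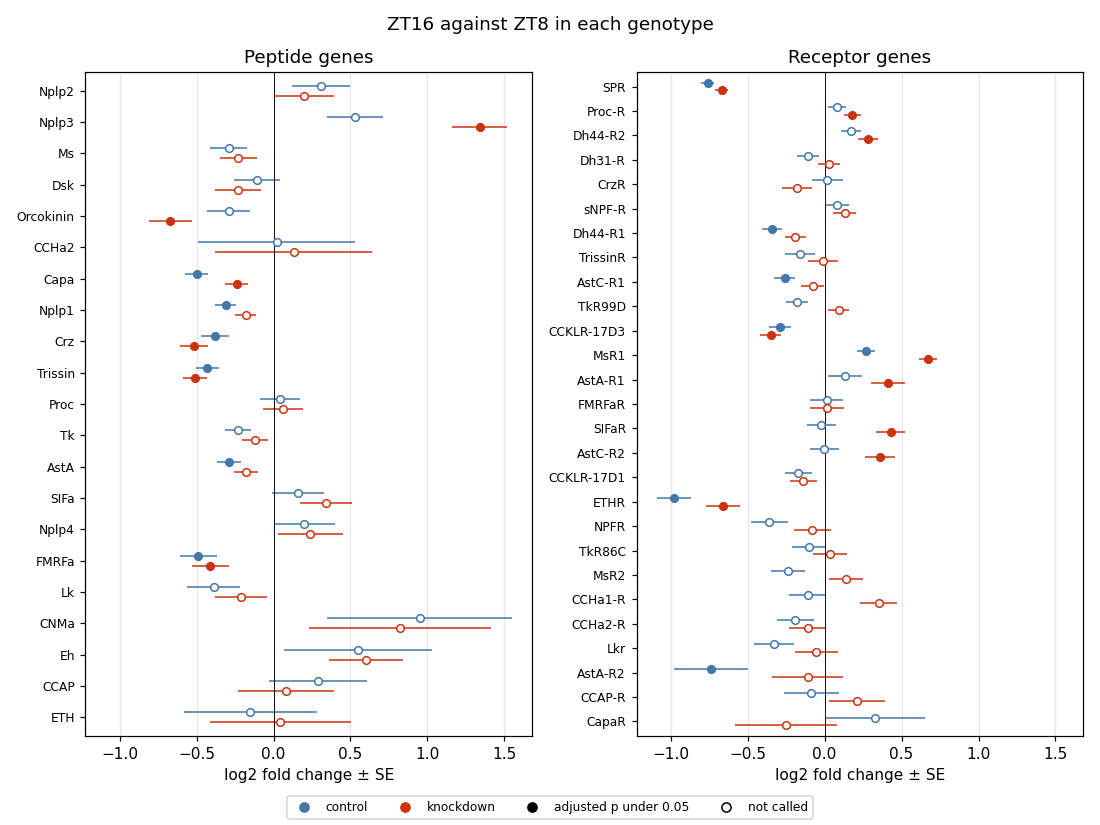
Log2 fold change of ZT16 against ZT8 ± standard error in control (blue) and knockdown (red) for 21 peptide genes (left) and 27 receptor genes (right), ordered by level, with filled points for adjusted p under 0.05. SPR, ETHR, Trissin and Crz lie left of 0 in both genotypes, and MsR1 lies right of 0 in both.

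The difference between the knockdown effects at ZT16 and ZT8 was called for 1 of 48 genes, MsR1, at 0.40 ± 0.085 (edgeR adjusted p = 0.033), where 2.67% of all genes tested were called in that direction and 1.51% in the other. At ZT8 MsR1 was at 15.3 to 16.6 CPM in control heads and 14.8 to 16.3 CPM in knockdown heads, so the groups overlapped there and separated at ZT16. That call was lost without control ZT8 library 2 (0.0738) or 3 (0.107), knockdown ZT8 library 1 (0.0656) or 3 (0.0585), control ZT16 library 3 (0.0886), or knockdown ZT16 library 1 (0.107) or 3 (0.0563), with the replicate block (0.0509) and on TPM (0.0763). The difference was above 0 in all 15 neuron markers (median 0.37, range 0.07 to 0.57) and passed the test in 8 of them (53.3%, against 2.67%). Their part in the value of MsR1 was not tested. SIFaR was next, at 0.46 ± 0.13 (edgeR adjusted p = 0.0749).

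Receptors were set beside their own ligands in 27 pairs, in which AstA, AstC, Dsk, Dh44, Ms and Tk each serve more than 1 receptor. At ZT8 both partners were called in the same direction in 1 pair, which was Dh44-R1 with Dh44. At ZT16 no pair had both partners called, while 5 pairs had the receptor alone and 1 the ligand alone. Among all genes tested, 8.84% rose and 6.76% fell at ZT8, and 11.2% rose and 11.0% fell at ZT16. Whether the pair counts differ from what such shares give was not tested. Over both times MsR1 (0.17) and its ligand Ms (-0.31) were called in opposite directions. With time in control AstA-R2 fell with AstA, and AstC-R1 fell with AstC (-0.38, edgeR adjusted p = 0.00116). In knockdown SPR fell with Mip (-0.50, edgeR adjusted p = 0.00501), and AstC-R2 rose where AstC fell (-0.44, edgeR adjusted p = 0.000412).

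Single genes for enzymes that make and break down peptides were called. Among 18 tested genes of peptide processing and release, QC, a glutaminyl cyclase that caps the N-terminus of some peptides, fell in knockdown at ZT8 (-0.74 ± 0.072, edgeR adjusted p = 6.18e-05) and ZT16 (-0.36 ± 0.073, edgeR adjusted p = 0.00558). Pal1, an amidating lyase, rose at ZT8 (0.18, edgeR adjusted p = 0.0385), unc-104, a kinesin that carries dense core vesicles, fell at ZT8 (-0.23, edgeR adjusted p = 0.0256), and Cadps, a release factor of those vesicles, rose at ZT16 (0.36, edgeR adjusted p = 0.000403). In all, 1 rose (5.56%) and 2 fell (11.1%) at ZT8 and 2 rose (11.1%) and 1 fell (5.56%) at ZT16, beside 8.84% and 6.76% of all genes at ZT8 and 11.2% and 11.0% at ZT16. With time in control 10 of the 18 fell (55.6%, against 11.8% of all genes), among them Phm, the amidating monooxygenase (-0.34, edgeR adjusted p = 0.000905), and in knockdown 3 rose (16.7%, against 11.8%) and 4 fell (22.2%, against 11.4%). Of 10 peptide-degrading enzymes, 2 rose (20%, against 11.2%) and 2 fell (20%, against 11.0%) at ZT16, with DppIII, a dipeptidyl peptidase, lowest in adjusted p (-0.34, 0.00522).

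Of 15 further tested peptide and receptor genes outside the list, 1 fell at ZT8 (6.67%, against 6.76% of all genes), which was CNMaR (-0.34, edgeR adjusted p = 0.0132), and at ZT16 rk, the bursicon receptor, rose (0.62 ± 0.090, edgeR adjusted p = 0.000836) and Mip, the precursor of myoinhibiting peptides, fell (-0.45 ± 0.10, edgeR adjusted p = 0.0107). With time in control 7 of the 15 fell (46.7%, against 11.8% of all genes), with a median of -0.26, and in knockdown 1 rose (6.67%, against 11.8%) and 2 fell (13.3%, against 11.4%).

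A total of 22 tested genes were called in none of the 6 comparisons, 11 peptide genes and 11 receptor genes. They were Dsk, ETH, Lk, Nplp2, Nplp4, Proc, SIFa, Tk, CCHa2, CCAP and CNMa, and CapaR, CrzR, CCHa1-R, CCHa2-R, CCKLR-17D1, FMRFaR, NPFR, sNPF-R, TrissinR, TkR86C and TkR99D. For CNMa this rested on 1 library: without knockdown ZT8 library 3 its change with time was 2.10 in knockdown (edgeR adjusted p = 0.000929) and 0.95 in control (0.0162), against 0.82 (0.365) and 0.95 (0.287) with it. With the rRNA share as a covariate, a fit chosen after the data were seen, the changes were 2.73 in knockdown (edgeR adjusted p = 0.00135) and 2.37 in control (0.00163). That share went with collection time, so this fit separates the 2 poorly and its larger changes are no separate support. Among all 48 genes, those that missed the threshold narrowly in a comparison included TkR99D, a tachykinin receptor, at ZT8 (-0.22 ± 0.068, edgeR adjusted p = 0.0531), Proc-R at ZT8 (0.17, 0.0701), CCAP-R and Nplp1 at ZT16 (0.52, 0.0626, and 0.18, 0.0776), NPFR, the receptor for neuropeptide F, with time in control (-0.36 ± 0.12, edgeR adjusted p = 0.0524) and CCHa1-R and Dh44-R1 with time in knockdown (0.35, 0.0643, and -0.19, 0.0641). A miss does not show equal levels: standard errors reached 0.51 for CCHa2, 0.60 for CNMa and 0.43 for ETH at ZT8, so that large changes in these 3 genes could have gone without a call.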

How the data were processed

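Transcripts of 12 head libraries were measured. Per the labels, the kit was TruSeq Stranded mRNA, and per the submitters' processing notes STAR 2.6.0c and RSEM 1.3.1 were used with dm6. The deposited table holds expected counts, whole in the file, and the FPKM and TPM that the authors computed per transcript. The strand setting is not given in the sources used here. FPKM served only to check levels. The column names of the control ZT16 libraries lack a character that their library names and all other columns hold. Their place in that group is thus an inference from the remainder of each name. The knockdown comparisons at ZT16 and over both times, the time comparison in control and the difference of effects rest on it.

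Expected counts and TPM were summed per gene. Counts were fitted in edgeR 4.0.16 (R 4.3.3) as 4 group means over 12 libraries (8 residual degrees of freedom; filterByExpr with minimum 10; TMM; robust quasi-likelihood F test), with Benjamini-Hochberg adjustment over 10717 genes. CPM uses TMM-scaled library sizes. The SE is the log2 change, unsigned, over the root of F. Alternatives were RLE factors, no filter, DESeq2 1.42.0, limma 3.58.1 (voom, and log2 of TPM plus 0.1 or 1), a replicate block, 6 libraries only, and each library left out. The TPM fits had no TMM or other added scaling between libraries.

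Members and lists were chosen with earlier results of these data known. Every member is named, and a called member gets values per library, in full for the 12 lowest adjusted p in a comparison. At most 4 genes of another list are named per comparison. Genes within 20 kb of AstC-R1, Eh, Nplp3, Orcokinin, Lkr and Capa were looked up after their changes were seen. Counting intervals cover counting error only.

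The titles number the libraries. No label says that a number marks a shared batch. At ZT8 most title numbers differ from the numbers in the library names. The replicate block and the correlations below use the title numbers. Same-numbered knockdown libraries at ZT8 and ZT16 deviated together weakly (r = 0.106, 0.109 and 0.127), and no other pair of groups had 3 such values over 0.1. Between control and knockdown at ZT8, r was 0.273 for number 1, -0.0995 for number 2 and 0.194 for number 3.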

Additional observations from a re-analysis of the deposited data

Results flagged for a closer look

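MsR1, a myosuppressin receptor, was marked because its knockdown effect differed between the times by a test of the difference itself. The effect at ZT16 minus that at ZT8 was 0.40 ± 0.085 on the log2 scale (edgeR adjusted p = 0.033), with all 3 knockdown libraries above all 3 control libraries at ZT16 and overlapping groups at ZT8. The adjusted p ran from 0.00839 to 0.107 over 20 alternatives and was above 0.05 in 10 of them.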

How the results depend on the processing

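Of 56 calls of members over the 6 comparisons, 33 held in every alternative and 42 held with any 1 library left out. Direction was followed only for the called members and the nearest misses of each comparison, and none of those values reversed. The knockdown calls of Eh, AstC-R1, Lkr, Nplp3, Orcokinin and AstC-R2, and the time calls of SPR, ETHR, Trissin, CCKLR-17D3, Nplp3 and Orcokinin, held in every alternative. For Eh this adds no support, as it passed the read filter only through its knockdown libraries. Leaving out each library gave 4 to 14 called members at ZT8 (14 without control ZT8 replicate 1), 7 to 10 at ZT16, 11 to 17 over both times, 10 to 17 with time in control, 10 to 16 in knockdown and 0 to 4 for the difference of effects. For that difference, 3 members were called with DESeq2, 4 with the rRNA covariate and 0 on TPM with either pseudocount or with the replicate block, where edgeR called 1. At an unadjusted p under 0.05 the members numbered 8 in edgeR, 7 and 9 on TPM and 7 with the block. With time in knockdown 9 were called on log2 of TPM plus 0.1.

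On TPM plus 0.1, fitted without TMM scaling, the median log2 change of all genes was -0.141 at ZT8 and -0.0714 at ZT16. With time it was -0.113 in control and -0.0699 in knockdown. On counts these medians were -0.00541, -0.0172, 0.0233 and -0.013. The part of this offset in rises whose calls ended on TPM was not tested. Higher and lower calls of members became 3 and 9 over both times (6 and 7 on counts) and 2 and 7 with time in knockdown (7 and 8). The replicate block gave 7 members at ZT8, 7 at ZT16, 13 over both times, 15 with time in control and 14 in knockdown. It added Ms at ZT8, Dsk over both times and Nplp3 and Dh44-R2 in control, and ended MsR2 at ZT16, CCAP-R over both times, Proc-R in knockdown and the difference for MsR1. No label states a pairing, and outside the knockdown libraries the same-numbered libraries did not all deviate together. The block used title numbers, which at ZT8 mostly differ from those in the library names, so its gains and losses show no effect of a known batch.

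Calls over all genes ranged from 673 to 2735 at ZT8 (1671 in the reported fit, 871 in 6 libraries), 1309 to 2759 at ZT16 (2379), 1532 to 2810 with time in control (2542), 1572 to 2871 in knockdown (2488) and 19 to 1107 for the difference (448, with 240 unfiltered, 918 with DESeq2, 73 and 78 on TPM, 137 with the block and 740 with the rRNA covariate) as libraries were left out. The rRNA covariate and the blocked fit of 6 knockdown libraries were chosen after seeing the data. The cause of these shifts was not tested. Depth limits genes of at most 15 reads per library, such as ETH, RYa, Burs and amn, and Eh in its control libraries.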
